A study of Mus musculus with 12 samples.

Results

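The 2 pancreatic cancer cell lines compared here differ in what remains of the tumor suppressor p53. The mt-CCs carry the mutant allele Trp53 R172H at its own locus, and the fl-CCs carry a floxed allele and are labelled as null for p53. Both lines came from primary tumors of mice heterozygous for the altered p53 allele, in which Pdx1-Cre, active in pancreatic epithelium, acted on that allele. Each genotype was represented by 1 line, with 3 arrays of mt-CCs and 3 of fl-CCs among the 12 arrays of the series, and the members were taken by their array titles. The other 6 arrays were of fl-CCs transfected with empty vector (EV, 3 arrays) or with human p53 R175H (3 arrays), and they serve below as a second view of the fl-CC line. All cells were grown in serum-containing medium to the same confluency without a drug treatment, apart from the G418 that the transfected cells received. Since mouse, tumor and line change together with the p53 allele, a difference between mt-CCs and fl-CCs cannot be told apart from a difference between 2 tumors.

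p53 is a transcription factor that halts division or kills cells after DNA damage and other stress. Substitution at the codon altered here removes the normal binding to DNA while the protein itself persists, and such mutants have been linked to invasion and metastasis in pancreatic cancer. The level of Trp53 itself was not analysed here.

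Values are log2 RMA values of Affymetrix probe sets, in which a difference of 1 is a doubling, and differences are given as mt-CCs minus fl-CCs. A value under 5 in all arrays of a group was taken as near background, and such a difference is given as "at least", counted from 5. Of 18193 genes, 7875 were called at an adjusted p of 0.05 or less (43.3%; limma, n = 3 arrays per group), 4035 higher (22.2%) and 3840 lower (21.1%). Among the 12136 genes with a mean of 5 or more in either line these shares were 30.5% and 29.0%. The counts of gene lists below are to be read beside both pairs of shares. Among probe sets, 13812 of 45037 were called (30.7%), 15.4% higher and 15.3% lower. In 55.3% of all genes the arrays of mt-CCs and fl-CCs did not overlap, so a lack of overlap alone says little. Arrays correlated at 0.994 to 0.995 within mt-CCs and at 0.994 to 0.996 within fl-CCs across probe sets, and at 0.960 to 0.962 between the lines. The 3′ minus 5′ signal of Gapdh, a measure of RNA integrity, was 0.741 to 0.883 in mt-CCs and 0.613 to 0.881 in fl-CCs, and that of beta-actin was 0.0733 to 0.177 and 0.123 to 0.167.

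As a check of the labelled cell type, the ductal keratins Krt8, Krt18 and Krt19 were high in mt-CCs and fl-CCs. Krt19 read 13.68 ± 0.03 (SD, n = 3) in the former and 13.66 ± 0.06 in the latter line. Of 10 measured ductal markers, 8 were lower in mt-CCs and 0 higher, with a median difference of -2.57 over the 10. Among the 8 were Krt7, lower by 4.45, Krt8, lower by 0.43, Krt18, Muc1, Cdh1 and Krt20. Krt19 and Sox9, a ductal transcription factor, were not called. The summed level of these markers was 14.98 to 15.10 on the log2 scale in mt-CCs and 15.73 to 15.80 in fl-CCs. Of 12 fibroblast markers, 6 were higher in mt-CCs and 1 was lower (0 with the 6 arrays of mt-CCs and fl-CCs alone), with summed levels of 10.40 to 10.45 against 7.76 to 7.91. The 6 were Col3a1, from 3.48 in fl-CCs to 9.50 in mt-CCs in the mean, Col1a1, from 5.37 to 7.95, Pdgfrb, Pdgfra and, at means under 5 in both lines, Col1a2 and Dcn, and the lower gene was Acta2, at 4.92 against 5.52. The other 5 markers, Thy1, Fap, Lum, Pdpn and Postn, were not called and were under 5 in all mt-CC arrays. Ptprc, the pan-leukocyte marker, was near background in all 6 arrays, 7 of 10 leukocyte markers were under 5 throughout in each line, and Cd68, a lysosomal membrane protein used as a macrophage marker, was higher at 7.66 against 5.75. The summed leukocyte level was 8.465 to 8.50 in mt-CCs and 7.74 to 7.86 in fl-CCs. No endothelial marker reached 5 in mt-CCs. In a bulk sample, fewer cells of a type and less RNA per cell cannot be told apart. The part of these marker shifts in the differences below was not tested.

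In 16 of the 24 genes with the largest differences, 1 line was near background and the other gave a strong signal. Wfdc2 and Tgfbr3, named first below, were not among the 16, since their fl-CC arrays were not all under 5. Wfdc2, a secreted protease inhibitor, read 12.80, 12.91 and 12.84 in the mt-CC arrays and 6.83, 5.85 and 5.76 in the fl-CC arrays, a difference of 6.71 ± 0.23 (SE, adjusted p = 3.83e-10, limma). Its highest fl-CC array lay far below its lowest mt-CC array. Tgfbr3, the co-receptor betaglycan that presents TGF-beta and inhibin, read 11.16, 11.27 and 11.23 against 4.77, 5.17 and 5.02. Ceacam1, an adhesion molecule of epithelial and immune cells, was higher by at least 5.93 and all of its 8 probe sets pointed the same way. Cers4, a ceramide synthase, was higher by 5.84 ± 0.13. The interferon-inducible genes Ifi202b and Ifitm1 were higher by at least 6.46 and 5.55, and the chemokine gene Cxcl12 by at least 5.52. Prelid2, a mitochondrial lipid-transfer protein gene, was higher by 5.43 when counted from 5. Grem1, which blocks bone morphogenetic proteins, Rcn1, Armcx2 and Tceal8 complete the 12 largest rises.

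The 12 largest falls were led by Anxa13. Anxa13, an annexin of intestinal epithelium, read 5.12, 4.82 and 4.80 in mt-CCs against 12.38, 12.25 and 12.36 in fl-CCs, a difference of -7.42 ± 0.10 (SE, adjusted p = 4.54e-13, limma). The groups lay far apart and the transfected fl-CCs stayed high, at 11.38 ± 0.07 (SD) with EV and 11.89 ± 0.08 with p53 R175H. Apob, the lipoprotein scaffold, was lower by at least 7.09 and Ttr, a carrier of thyroid hormone and retinol-binding protein, by at least 6.48. Tm4sf1, a tetraspanin-like surface protein, was lower by 6.89 ± 0.09, from 13.28 to 6.39 in the mean. Cfi, a protease that inactivates complement, was lower by at least 6.32, and Dsp, the desmosome linker, by at least 6.39. Rasgrp3, a guanine nucleotide exchange factor, was lower by 5.83 ± 0.18. Klhl13, Aldh1a1, Auts2, Krt20 and C2cd4c complete the 12 largest falls. The 24 genes were picked for large differences, so the midpoint between the lines lies far from both. In 23 of these 24 genes all 6 arrays of the transfected fl-CCs lay on the fl-CC side of that midpoint. The exception was Klhl13, an adaptor of a ubiquitin ligase, which read 10.91 in fl-CCs, 7.36 with EV and 12.11 with p53 R175H in the mean.

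**Figure D1:**
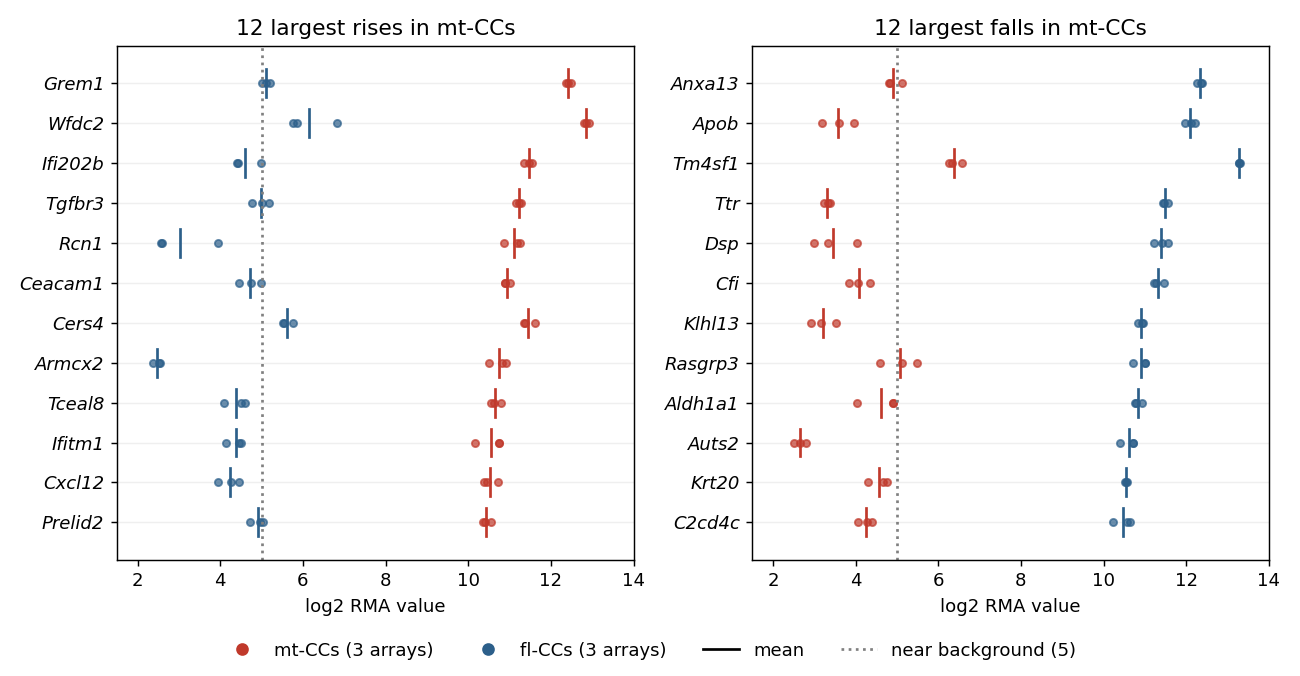
Log2 RMA values of the 12 genes with the largest rise (left) and the 12 with the largest fall (right) in mt-CCs against fl-CCs. Points are single arrays, short lines are means of 3 arrays and the dotted line marks the value of 5 taken as near background. The genes were chosen for large differences without overlap, so the red and blue points lie far apart by that choice.

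A second set of genes was clearly expressed in both lines and still differed. Of the genes with a value of 7 or more in all 6 arrays, 2287 were higher and 2140 lower without overlap, and 335 of the former and 344 of the latter differed by 1 or more. Ifitm3, an interferon-inducible membrane protein that blocks virus entry, was higher by 4.25 ± 0.12 (SE). Chst1, a keratan sulfate sulfotransferase, was higher by 4.14 ± 0.12 and Itgb7, an integrin chain of homing lymphocytes, by 4.10 ± 0.13. Cdx2, the homeobox gene that specifies intestine, read 11.28, 10.92 and 11.37 in mt-CCs and 8.0, 7.54 and 7.52 in fl-CCs. In the opposite direction, Hnf4a, a transcription factor of liver and gut epithelium, read 8.74, 8.92 and 8.91 against 12.36, 12.27 and 12.31. Both are regulators of intestinal genes, and they differed in opposite directions. Sprr1a, a squamous envelope protein, was lower by 5.07 ± 0.14, Plac8 by 4.69 ± 0.09 and Lgals2, a galectin of the gut, by 4.33 ± 0.11. Nt5e, which makes extracellular adenosine, was lower by 3.59 ± 0.10, although 1 of its 3 probe sets gave 0.02. In Dpysl3 and Sdc2 the transfected cells did not keep the fl-CC level. Sdc2, a cell-surface heparan sulfate proteoglycan, read 11.09 in mt-CCs, 7.60 in fl-CCs, 5.14 with EV and 10.08 with p53 R175H in the mean.

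The called members of the Armcx, Bex and Tceal family were higher in mt-CCs without exception. These genes lie close together on the X chromosome and are known mainly from the nervous system and, for the Armcx proteins, from mitochondria. Of 17 measured members, 10 were higher in mt-CCs and 0 lower, with a median difference of 0.35. Over all genes 22.2% were higher and 21.1% lower, with a median of -0.01. The X chromosome as a whole was also shifted upward. Of its 245 genes with a mean of 7 or more in either line, 48.6% were higher and 23.7% lower. Their median difference was 0.28. The family was counted without that limit, and whether it differed beyond its chromosome was not tested. Armcx2, an armadillo-repeat protein, read 10.49, 10.91 and 10.82 in mt-CCs and 2.52, 2.37 and 2.54 in fl-CCs. Tceal8 read 10.78, 10.55 and 10.62 against 4.49, 4.08 and 4.60. In both genes the fl-CC arrays were all near background. Armcx3, which takes part in mitochondrial movement along axons, was higher by at least 3.96, Armcx1 by at least 2.66 and Bex1 by at least 1.80. Other members of the same neighbourhood hardly differed. Bex3 read 11.90, 11.89 and 11.86 in mt-CCs and 11.63, 11.70 and 11.77 in fl-CCs (difference 0.18 ± 0.09 SE, adjusted p = 0.138, limma; called with an intensity trend in the variance), and Armcx5 gave -0.16 ± 0.20 with overlapping arrays. Tceal7 passed the test but was near background in both lines, so no difference is given. The calls of Tceal7 and Tceal9 (0.24 ± 0.08) were lost with the 6 arrays alone.

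**Figure D2:**
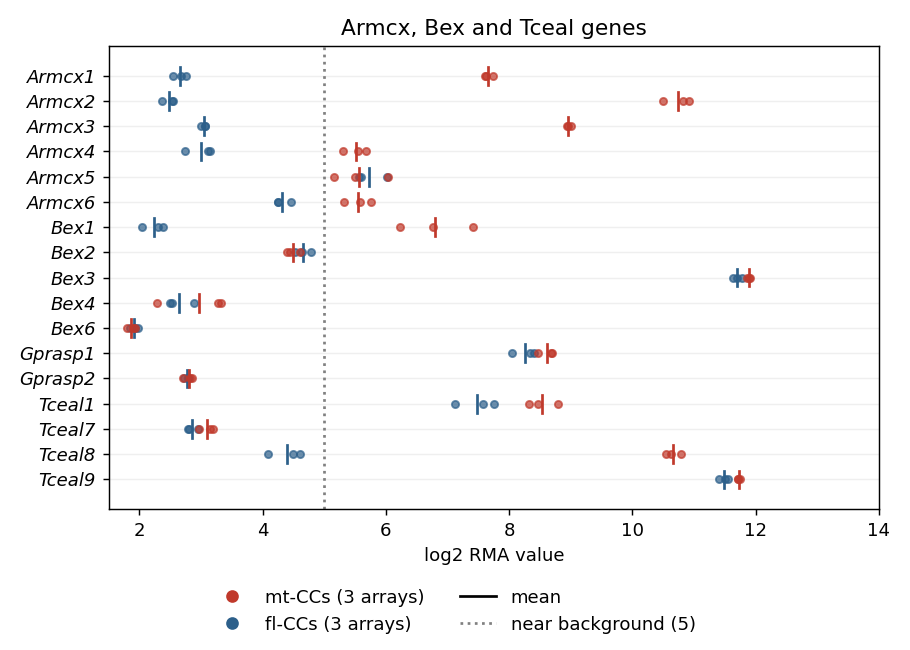
Log2 RMA values of the 17 measured Armcx, Bex and Tceal genes, with points for single arrays and short lines for means of 3 arrays. Armcx1, Armcx2, Armcx3, Bex1 and Tceal8 go from under 5 in fl-CCs to clearly higher in mt-CCs, while Bex3 and Tceal9 are bright in both lines.

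The promoters of this family are shown because many of its members share a sequence that few other promoters hold, whether or not the gene differed. The windows are those of RefSeq, 250 bases before to 50 after the start of the gene, in build GRCm38.p6, with Armcx1 at chrX:134717688-134717987 (plus strand), Tceal8 at chrX:136172202-136172501 (minus strand), Bex3 at chrX:136270003-136270302 (plus strand) and Armcx2 at chrX:134809172-134809471 (minus strand). Capitals mark the letters CACGTGA or their reverse complement, which overlap in TCACGTGA.
Armcx1: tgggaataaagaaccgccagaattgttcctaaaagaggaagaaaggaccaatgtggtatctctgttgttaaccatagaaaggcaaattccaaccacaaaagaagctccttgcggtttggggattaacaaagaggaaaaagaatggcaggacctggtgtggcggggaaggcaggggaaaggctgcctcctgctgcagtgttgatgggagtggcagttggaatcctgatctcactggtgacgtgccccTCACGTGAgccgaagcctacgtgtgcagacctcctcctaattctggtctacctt
Tceal8: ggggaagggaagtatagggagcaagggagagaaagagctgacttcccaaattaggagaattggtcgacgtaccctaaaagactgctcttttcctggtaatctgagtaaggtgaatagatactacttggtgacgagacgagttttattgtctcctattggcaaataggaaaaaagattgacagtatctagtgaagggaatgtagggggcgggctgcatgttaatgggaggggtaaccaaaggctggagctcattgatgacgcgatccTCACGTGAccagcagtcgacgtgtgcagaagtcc
Bex3: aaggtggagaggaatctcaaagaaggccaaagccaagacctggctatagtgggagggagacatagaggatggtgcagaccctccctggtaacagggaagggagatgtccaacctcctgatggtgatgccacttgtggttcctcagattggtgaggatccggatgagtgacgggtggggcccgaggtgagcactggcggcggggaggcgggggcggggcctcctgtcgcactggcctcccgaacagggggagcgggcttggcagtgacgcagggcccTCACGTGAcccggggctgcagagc
Armcx2: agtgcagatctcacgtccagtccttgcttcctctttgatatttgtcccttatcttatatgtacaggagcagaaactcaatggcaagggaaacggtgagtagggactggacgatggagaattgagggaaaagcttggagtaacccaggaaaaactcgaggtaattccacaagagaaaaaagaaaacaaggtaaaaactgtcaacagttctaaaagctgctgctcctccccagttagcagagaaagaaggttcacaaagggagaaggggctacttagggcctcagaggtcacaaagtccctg
Armcx1 and Tceal8, which were near background in fl-CCs, and Bex3, which was bright in both lines, hold the letters close to the start, and Armcx2 holds none in this window. The letters CACGTGA, on either strand, were in 11 of 19 family promoters (57.9%) and in 3.84% of 27025 promoters of the same length. The longer TCACGTGA was in 8 of 19 and in 1.01% of all. Of the 11 genes, 7 were called higher in mt-CCs, 2 were not called and 2 were not measured here. The letters were chosen after these promoters had been read, so the shares describe the family and test nothing.

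Among growth factor receptors, some relatives differed in opposite directions. Of 30 receptor tyrosine kinases, 10 were higher and 9 lower, with a median of 0.18. Among the 22 with a mean of 5 or more in either line, 40.9% were higher and 40.9% lower. Among all such genes the shares were 30.5% and 29.0%. Fgfr1, the fibroblast growth factor receptor of mesenchymal cells, read 9.20, 9.34 and 9.07 in mt-CCs and 5.35, 4.82 and 4.85 in fl-CCs. Fgfr2, whose epithelial form binds Fgf7 and Fgf10, read 3.98, 4.15 and 3.78 against 8.51, 8.50 and 8.47. The groups were apart in both receptors and in opposite directions. Fgfr3 was lower by 2.42 ± 0.20 (SE). The platelet-derived growth factor receptors Pdgfrb and Pdgfra were higher, by at least 2.01 and by 1.95 when counted from 5. Egfr, the epidermal growth factor receptor, was higher by 2.82 ± 0.16 by the probe set with the smallest p, and its 7 probe sets ranged from 0.17 to 2.82. Mst1r, the receptor of macrophage-stimulating protein, was lower by at least 1.64.

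In the insulin-like growth factor axis, 11 of 23 genes were higher and 3 lower, with a median of 0.25. Igfbp6, which binds Igf2 most tightly, was higher by at least 3.92. Htra1, a protease that cleaves the binding proteins, was higher by 1.85 ± 0.13 (SE) and the receptor genes Igf1r and Igf2r by 0.79 ± 0.10 and 0.69 ± 0.12. Igfbp5, another binding protein, read 3.79, 3.73 and 4.81 in mt-CCs and 9.78, 10.11 and 10.10 in fl-CCs. Its EV arrays averaged 5.26 and its p53 R175H arrays 9.78, so that the EV arrays lay near the mt-CC arrays and the p53 R175H arrays near the untransfected fl-CC arrays.

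Some genes of Wnt signalling were called at each level, from ligand to inhibitor. Wnt proteins bind Frizzled receptors and either stabilise beta-catenin or act through receptors such as Ror2. Of 25 ligands and agonists, 8 were higher, 3 lower and 14 not called, and of 18 receptors, 9 were higher and 5 lower. Among ligands and agonists with a mean of 5 or more in either line, 37.5% were higher and 18.8% lower. Among such receptors the shares were 57.1% and 28.6%, and among all such genes 30.5% and 29.0%. Wnt4 was higher by 2.93 ± 0.10 (SE). Wnt5a, which signals through Ror2, read 8.96, 8.91 and 9.20 in mt-CCs and 6.50, 6.74 and 6.37 in fl-CCs, and Ror2 itself was higher by at least 3.76. Wnt7a and Porcn, the enzyme that acylates Wnt proteins, were lower by 1.72 ± 0.15 and 1.64 ± 0.09. Fzd6 was lower by 2.11 ± 0.13. Of 22 inhibitors and feedback targets, 9 were higher and 0 lower, with a median of 0.18. Apcdd1, a membrane inhibitor of the pathway, read 10.75, 10.74 and 10.92 in mt-CCs and 6.47, 6.09 and 5.65 in fl-CCs, and the secreted decoy Sfrp1 was higher by at least 2.42. Axin2, a direct target of beta-catenin, was higher by 0.66 ± 0.12. Several of the 9 were dim, and with dim probe sets left out 5 were called.

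Guidance molecules, first known from growing axons, were mixed. Of 39 cues, 13 were higher and 12 lower (33.3% and 30.8%), and of 34 receptors, 8 were higher and 7 lower (23.5% and 20.6%). The receptor shares lay near the 22.2% and 21.1% of all genes. With a mean of 5 or more in either line, the shares were 41.4% and 41.4% of cues and 42.1% and 31.6% of receptors. Among all such genes they were 30.5% and 29.0%. Ntn1 (netrin-1) was higher by at least 2.17, while Sema4a and Sema4g, membrane semaphorins, were lower by 3.80 ± 0.11 and 2.60 ± 0.07 (SE). Nrp2, a co-receptor of semaphorins and of Vegfc, was higher by 2.94 ± 0.14, and the ephrin receptor Epha7 was lower by at least 1.62. Of 31 angiogenic factors, 16 were higher and 5 lower, with a median of 0.51. Vegfc, the growth factor of lymphatic vessels, was higher by 1.55 ± 0.18 and Angpt1, a ligand of the endothelial receptor Tek, by at least 1.68. Thbs2, an inhibitor of vessel growth, was higher by at least 2.17. Vegfa, the main growth factor of blood vessels, was lower by 0.62 ± 0.17 (adjusted p = 0.0159, limma) in 1 probe set and gave 0.08 in the other. The count of 5 lower genes dropped to 2 with the 6 arrays alone or without fl-CCs replicate 2, and to 3 without fl-CCs replicate 3 or mt-CCs replicate 3.

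Lysosome and autophagy genes were mostly higher in mt-CCs, many by small amounts. Of 71 measured genes, 41 were higher and 10 lower, with a median difference of 0.33. Among the 66 with a mean of 5 or more in either line, 60.6% were higher and 15.2% lower. Among all such genes the shares were 30.5% and 29.0%. Dram1, a lysosomal membrane protein that promotes autophagy and was first described as a target of p53, read 10.50, 10.49 and 10.50 in mt-CCs and 5.29, 5.91 and 5.86 in fl-CCs. Arsb, which removes sulfate from dermatan and chondroitin sulfate, was higher by 3.46 ± 0.10 (SE), and the protease Ctsb by 2.14 ± 0.10. Npc2, a lysosomal cholesterol carrier, was higher by 1.81 and the membrane protein Lamp2 by 1.29. Mitf and Tfe3, transcription factors that drive lysosomal genes, were higher by at least 0.44 and by 0.72, and their relative Tfeb by 0.38 ± 0.08. Ctse, an aspartic protease of stomach epithelium, moved the other way and read 6.85, 6.98 and 6.82 against 10.85, 11.31 and 11.36. Ctsd, the common lysosomal aspartic protease, was lower by 0.39 ± 0.11, a call lost with the 6 arrays alone and without fl-CCs replicate 2 or 3 or mt-CCs replicate 1. With a further limit of 1 on the log2 difference, 10 of these genes were higher and 1 lower.

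Enzymes of amino acid metabolism were lower more often than higher. Of 42 enzymes of amino acid and one-carbon metabolism, 17 were lower (40.5%) and 5 higher (11.9%), with a median of -0.14, beside 21.1% and 22.2% of all genes. Gldc, the glycine decarboxylase of the mitochondrial glycine cleavage system, read 5.99, 5.71 and 5.87 in mt-CCs and 11.05, 10.78 and 10.79 in fl-CCs, a difference of -5.02 ± 0.10 (SE, adjusted p = 6.97e-12, limma). Shmt1, the cytosolic enzyme that links serine, glycine and folate, was lower by 2.42 ± 0.11, whereas the mitochondrial Shmt2 gave 0.28 ± 0.12 and was not called (adjusted p = 0.0984), although it was called with array weights or without fl-CCs replicate 1. Cbs and Cth, the consecutive enzymes from homocysteine to cysteine, were lower by 1.64 ± 0.15 and 0.90 ± 0.19. Phgdh, the first enzyme of serine synthesis, was higher by 0.50 ± 0.13. Of 33 amino acid transporters, 8 were higher and 12 lower. Slc38a1, a glutamine carrier, was higher by 4.73 ± 0.17 and Slc16a10, which carries aromatic amino acids, was lower by 3.74 ± 0.15. Slc38a1 averaged 4.81 with EV and 9.25 with p53 R175H, on either side of its fl-CC mean of 6.41.

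Among 78 xenobiotic and retinoid enzymes, 24 were higher and 31 lower. Relatives that carry out the same step differed in opposite directions. Aldh1a1, which oxidises retinal to retinoic acid, read 4.03, 4.90 and 4.90 in mt-CCs and 10.94, 10.79 and 10.75 in fl-CCs. Aldh1a3, which carries out the same step, read 8.88, 8.75 and 8.80 against 5.89, 6.42 and 6.35. The carrier Crabp2, which hands retinoic acid to its receptors, was higher by 3.31 ± 0.13 (SE), Cyp26b1, which degrades it, by 2.03 ± 0.11 and the receptor Rarg by 1.47 ± 0.12. Aldh1a7 and Akr1c19 were lower, by at least 3.78 and 4.08, and Cyp3a13, a drug-oxidising cytochrome, by 4.35 ± 0.12. Probe sets for close relatives within these families can share target sequence, so the split between Aldh1a1 and Aldh1a7 is uncertain. Of 41 nuclear receptors, 7 were higher and 14 lower, and the 14 became 9 with the probe set of highest mean per gene. Nr2f1 was higher by 2.96 ± 0.09, but its EV mean of 8.82 lay nearer to the mt-CC mean of 9.85 than to the fl-CC mean of 6.88.

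Annexins and S100 proteins, which bind calcium at membranes, were lower in 13 of 25 cases and higher in 7, with a median of -0.33. Beside Anxa13, Anxa10 was lower by 4.33 ± 0.12 (SE) and S100g, a vitamin D-dependent calcium carrier, by 2.98 ± 0.19. Anxa6 and Anxa8 were higher by 2.58 ± 0.09 and 2.16 ± 0.09. Of 75 glycosyltransferases, 24 were higher and 13 lower. Gcnt3, which branches mucin glycans, was lower by at least 3.96 and Galnt18, which starts such chains, was higher by at least 3.09. Of 25 connexins, pannexins and aquaporins, 2 were higher and 6 lower, the rises being the gap junction genes Gja1, by 1.44 ± 0.10, and Gjc1, by 1.18 ± 0.17. In fatty acid handling, 12 of 50 genes were higher and 14 lower, with Dgat2, the last enzyme of triglyceride synthesis, lower by 1.94 ± 0.11.

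**Figure D3:**
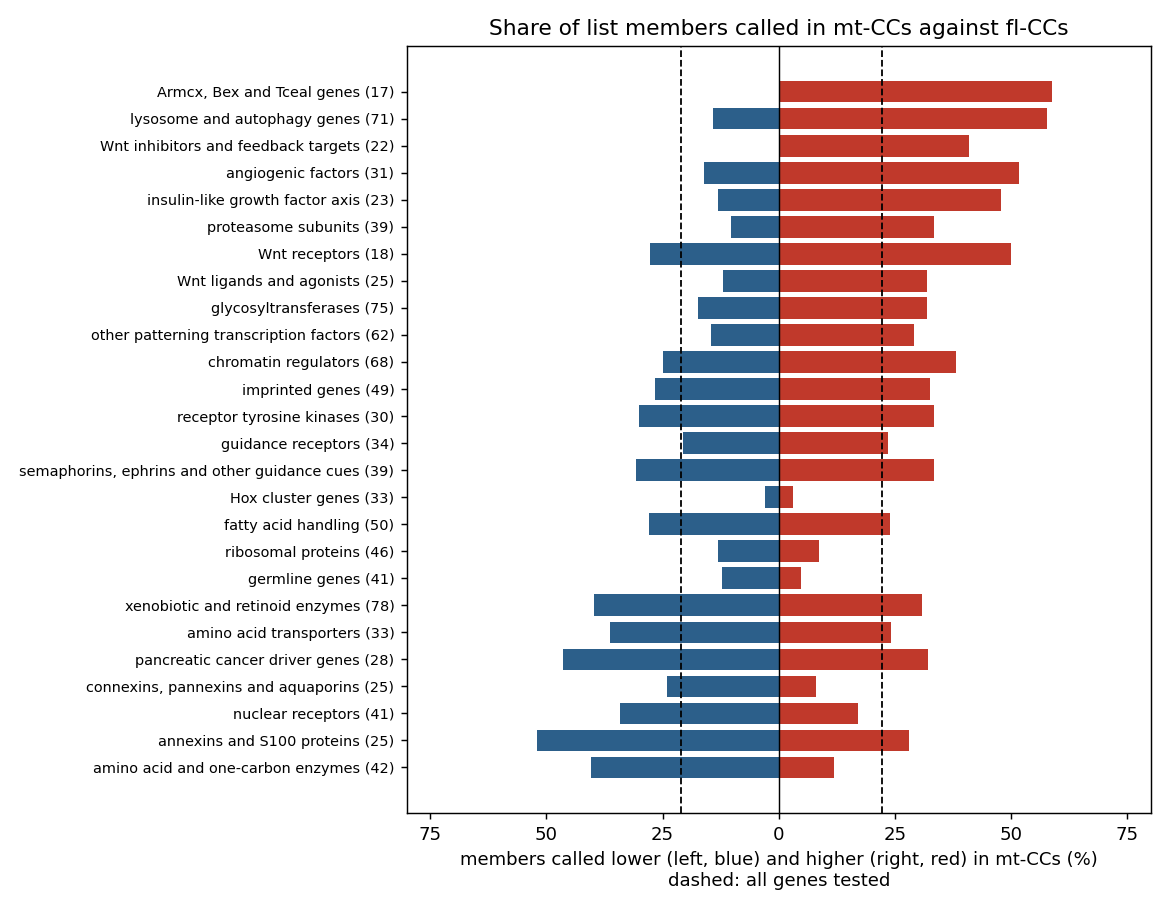
Share of the measured members of each gene list called higher (red, right) and lower (blue, left) in mt-CCs against fl-CCs, with the number of members in parentheses and dashed lines at the shares over all genes, 22.2% and 21.1%. These include dim genes, and among genes with a mean of 5 or more in either line the shares were 30.5% and 29.0%. A list made up mostly of such genes can pass both dashed lines for that reason alone. Lists are ordered by the difference of the 2 shares, with the Armcx, Bex and Tceal genes at 58.8% higher and 0% lower; lists of under 10 genes and 1 list not reported here are left out.

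Transcription factors that pattern the embryo were often near background in both lines. Of 33 Hox cluster genes, 1 was called higher and 1 lower, and neither reached a mean of 5 in either line. The lower count was 2 without fl-CCs replicate 2 or mt-CCs replicate 2, and both counts were 0 with dim probe sets left out. Of 62 other patterning factors, 18 were higher and 9 lower. Prrx1, a homeobox gene of mesenchyme, was higher by at least 3.59, and its 6 probe sets ranged from 1.90 to 5.47. Dlx2 was higher by 3.29 ± 0.10 (SE) and Zic2 was lower by 2.91 ± 0.19. Imprinted genes, read from the copy of 1 parent, included 16 higher and 13 lower of 49. The neighbours Sgce and Peg10, which share an imprinted region, went up together. Sgce read 8.99, 8.92 and 9.13 in mt-CCs and 3.59, 3.37 and 3.43 in fl-CCs, and Peg10 was higher by at least 2.31. Both were near background in the fl-CC arrays and had EV and p53 R175H means of 2.97 to 3.38. Grb10, an adaptor that dampens insulin signalling, was higher by at least 3.82 and Ddc, which lies next to it, was lower by at least 4.39. Gatm, the first enzyme of creatine synthesis, was lower by at least 4.62.

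Of 68 chromatin regulators, 26 were higher and 17 lower. Smarca2, an ATPase of the SWI/SNF complex, was higher by 1.93 ± 0.17 (SE) and Smarca1, an ISWI ATPase, was lower by at least 3.13. With the 6 arrays alone the 26 higher genes became 17. Of 41 germline genes, 2 were higher and 5 lower, which became 1 higher without fl-CCs replicate 2 and 3 lower without replicate 1 of either line. Among 28 genes recurrently altered in pancreatic cancer, 9 were higher and 13 lower. Gata6, which marks the classical subtype, read 6.28, 6.23 and 6.12 in mt-CCs and 9.08, 9.16 and 9.18 in fl-CCs. Smad4, the shared transducer of TGF-beta signals, was lower by 0.49 ± 0.09 and Cdkn2a by 0.81 ± 0.10. Of 46 ribosomal proteins, 4 were higher and 6 lower, which became 14 and 12 with an intensity trend in the variance. Of 39 proteasome subunits, 13 were higher and 4 lower, which became 6 and 2 with the 6 arrays alone or without fl-CCs replicate 2. The higher count was also 7 without fl-CCs replicate 3, and the lower count 2 without fl-CCs replicate 1 or mt-CCs replicate 3.

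The Y-linked genes differed between the lines and also within the fl-CC family. Eif2s3y, a translation initiation factor, read 10.83, 10.74 and 10.76 in mt-CCs and 7.80, 7.81 and 7.76 in fl-CCs. Its mean was 5.49 with EV and 9.55 with p53 R175H. Kdm5d, a histone demethylase, averaged 8.19 in mt-CCs, 6.34 in fl-CCs, 4.50 with EV and 7.62 with p53 R175H. Uty followed the same order. Xist, the RNA that silences an X chromosome in female cells, was near background in all 6 arrays. In all 3 genes the range from EV to p53 R175H was wider than that from fl-CCs to mt-CCs.

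Differences were also unevenly spread over the chromosomes. For 8714 genes with a mean of 7 or more in either line and a place in the RefSeq gene table, 34.2% were higher and 32.4% lower, with a median of 0.03. On chromosome 10, 59.9% of 444 genes were higher and 12.6% lower, with a median of 0.38. Chromosome 14 followed with 56.1% higher and 14.2% lower of 289 genes (median 0.36). Chromosome 7 had 21.8% higher and 52.2% lower of 605 genes (median -0.34), and chromosome 19 had 15.2% and 50.5% of 323 genes (median -0.30). Measured against the mean of the 6 transfected arrays, the chromosome 10 median was 0.42, 0.41 and 0.42 in the mt-CC arrays and 0.06, 0.03 and 0.05 in the fl-CC arrays. On 19 of 20 chromosomes the mt-CC and fl-CC arrays did not overlap, although some gaps were narrow. On chromosome 17 the highest mt-CC array was at 0.0754 and the lowest fl-CC array at 0.0847. With 3 arrays against 3, an exact two-sided permutation test cannot go below p = 0.1, so no test of a chromosome was made.

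The transfected fl-CCs also differed from their parent by chromosome. Between EV and fl-CCs the chromosome medians ran from -0.27 to 0.29, and between p53 R175H and fl-CCs from -0.18 to 0.29, against -0.34 to 0.38 between the lines. Chromosomes 10 and 14 stayed higher in mt-CCs against each group of the fl-CC line. The chromosome 10 median was 0.27 against EV and 0.55 against p53 R175H, and that of chromosome 14 was 0.29 against either. Chromosomes 7 and 19 stayed lower, with -0.18 and -0.18 against EV and -0.33 and -0.23 against p53 R175H. Keeping the direction was common, since only chromosomes 1, 2, 13, 17 and X turned in a comparison. All of these comparisons share the same mt-CC arrays. The X chromosome, which holds the Armcx, Bex and Tceal genes, had a median of 0.28 against fl-CCs and 0.36 against EV but -0.04 against p53 R175H, in which Armcx2 and Armcx3 were still near background. Chromosome 2 gave 0.16 against fl-CCs, 0.41 against EV and -0.06 against p53 R175H. The files hold RNA values, and no DNA measurement was used here.

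**Figure D4:**
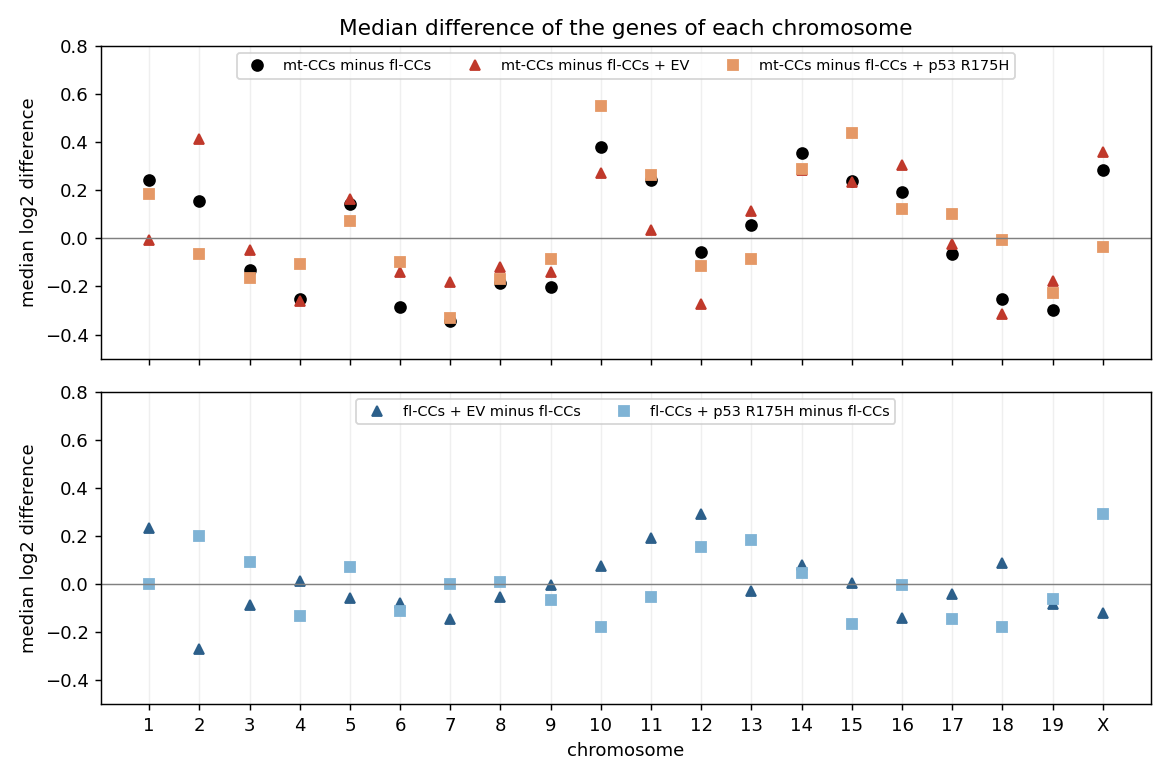
Median log2 difference over the genes of each chromosome with a mean of 7 or more in either line, for mt-CCs against the 3 groups of the fl-CC line (upper) and for the transfected fl-CCs against fl-CCs (lower). Chromosomes 10 and 14 lie above 0 and chromosomes 7 and 19 below 0 in all 3 upper comparisons, while the lower panel spans -0.27 to 0.29. Most other chromosomes also keep their side of 0 in the upper panel.

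Within some chromosomes the direction turned at a point along the gene order. The genes ordered were again those with a mean of 7 or more in either line. When the genes of a chromosome were split in order into 4 blocks of about equal number, the median on chromosome 3 was -0.50 and -0.33 in the first and the second block and 0.27 and 0.32 in the third and the fourth. On chromosome 4 it was -0.36, -0.40 and -0.36 in the first 3 blocks and 0.27 in the last, which began at Nipal3 and ended at Samd11. On chromosome 8 it was 0.13 and 0.20, then -0.33 and -0.53. Chromosome 10 stayed positive, at 0.31, 0.35, 0.43 and 0.39.

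**Figure D5:**
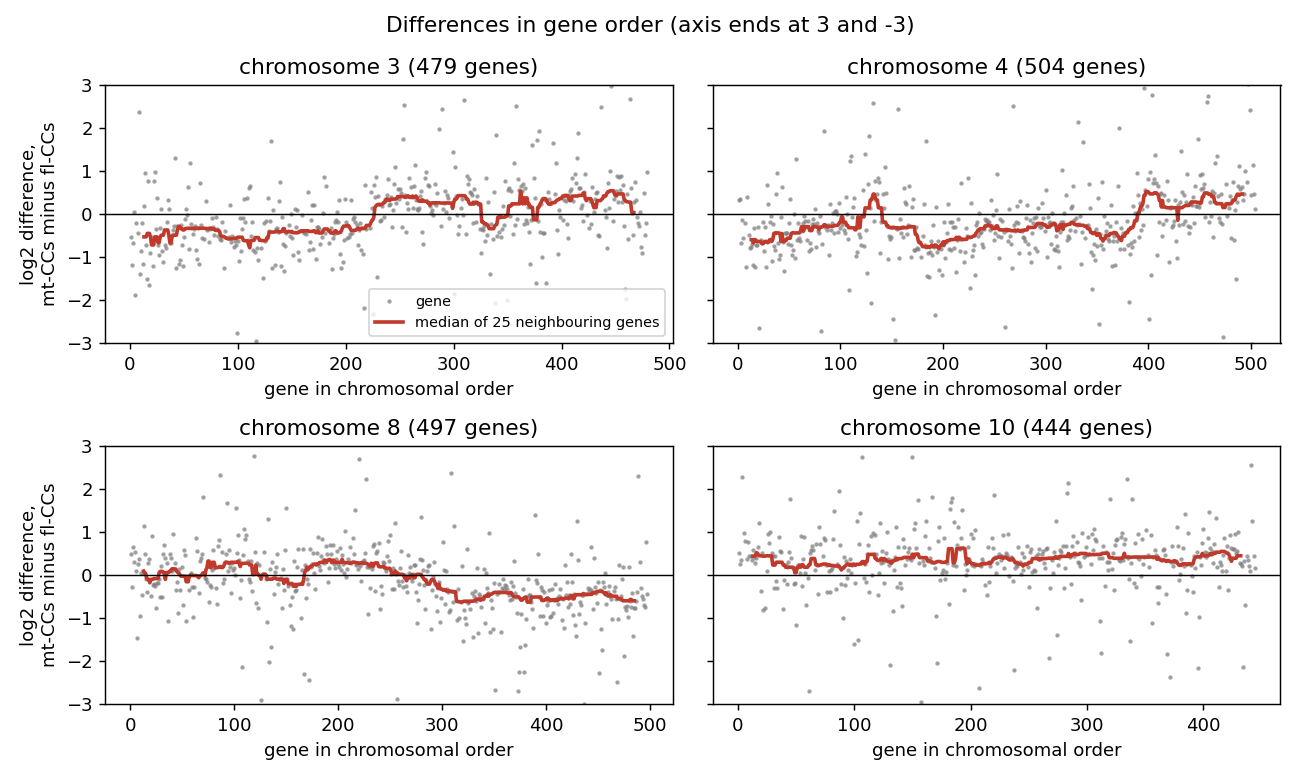
Log2 differences of single genes (grey points, with the axis ending at 3 and -3) and the median of 25 neighbouring genes (red line) in chromosomal order on chromosomes 3, 4, 8 and 10. Only genes with a mean of 7 or more in either line are drawn, and dimmer genes between them are left out. The line turns from negative to positive midway along chromosome 3, where it dips under 0 again for 2 short stretches, and near the end of chromosome 4, where it rises above 0 for a short stretch earlier, falls under 0 in the later part of chromosome 8 and stays above 0 along chromosome 10.

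Only genes with a mean of 7 or more in either line were ordered, so dimmer genes lying between them were passed over. Neighbouring genes in that order, called in the same direction, formed 97 runs of 6 or more. Of these runs, 45 were higher with 342 genes and 52 lower with 411 genes. Chromosome 10 held 10 of the higher runs and none of the lower, and chromosome 7 held 12 of the lower and 2 of the higher. The longest runs had 13 genes. The run from Slc12a4 to Sntb2 on chromosome 8 was lower by 0.33 to 4.12 and included Cdh1, the epithelial cadherin, at -2.24 ± 0.09 (SE), and the splicing regulator Esrp2. The run from Atm to Etfa on chromosome 9 was lower by 0.24 to 1.71, and the run from Atad3a to 9430015G10Rik near the end of chromosome 4 was higher by 0.325 to 4.51. On chromosome 10, runs of 12 genes went from Herc4 to Ccdc6 and from Cdk17 to Cep83, and a run of 10 from Timp3 to Gnptab included Dram1. Some ends were uncertain: Ccdc6 lost its call whichever of the 6 arrays was left out, and 9430015G10Rik, Cep83 and Gnptab each lost theirs or turned in 4 or 5 of the 6 fits that left out 1 array. A run of 10 lower genes on chromosome 19 went from Slc35g1 to Ccnj, with a median of -1.33. Wfdc2 lay in a run of 11 higher genes on chromosome 2, from Sys1 to Pcif1, in which the median was 0.55.

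Promoter sequences were counted for genes near background in 1 line and bright in the other. Of 108 genes near background in fl-CCs and at a mean of 7 or more in mt-CCs, 81 had a RefSeq promoter, with a median of 15 CpG in 300 bases. Of 85 genes switched the other way, 65 had a promoter, with a median of 8 CpG. The median over all 14368 genes with a promoter was 17, over genes at 7 or more in all 6 arrays and not called it was 22, and over genes under 5 in all 6 arrays it was 6. Promoters with 5 or fewer CpG made up 17.3% of the first group, 41.5% of the second and 22.0% of all. The letters TATAAA, on either strand, were in 13.6% and 21.5% of the switched groups and in 9.86% of all. GGGCGG was in 55.6% and 47.7% against 54.1%, CCAAT in 30.9% and 32.3% against 38.2%, and CACCTG in 14.8% and 23.1% against 19.7%. Among genes under 5 in all 6 arrays, 46.1% had 5 or fewer CpG, 15.5% held TATAAA and 33% held GGGCGG. Among genes at 7 or more in all 6 arrays and not called, the shares were 4.51%, 5.95% and 68.3%. These shares are descriptions and were not tested.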

How the data were processed

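RNA of 12 cell samples was hybridized to Affymetrix mouse GeneChips with 45101 probe sets. The deposited values are log2 expression values that the authors made by RMA (no version is stated), with a median of 5.59 over the series. The genome build is not given in the sources used here. After removal of 64 control probe sets, limma 3.58.1 (lmFit and eBayes, R 4.3.3) was fitted to the group means of all 12 arrays, with mt-CCs minus fl-CCs as the contrast and Benjamini-Hochberg adjustment over 45037 probe sets. The methods name Partek for this test, without its arrays or covariates. Each group was 1 line, so p-values reflect variation among preparations of a line, and the number of arrays limits the precision.

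Gene symbols came from the platform annotation and were compared with RefSeq (GRCm38.p6) by gene number (34754 matched). Probe sets with several symbols (932) or none (9160) entered the fit but no gene count. Trp53 has no probe set in this annotation. For each gene the probe set of smallest adjusted p was kept, which is also the rule of the methods. This favours calls, and 164 genes had probe sets called in both directions. Promoters and gene order came from the same RefSeq build, and 14368 genes had a promoter.

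The comparison, the 28 gene lists (1093 measured genes) and the 6 marker lists were chosen with earlier results of these data known. One list and one allele shared by the lines are not reported here. Named genes were the 12 largest rises and falls, by the difference counted from 5, among called genes without overlap, the 8 largest of each among genes at 7 or more in all 6 arrays, up to 3 of each per list with members needed to describe a pair or subgroup, markers, sex-linked and driver genes, and the ends of runs. The promoter letters of the Armcx, Bex and Tceal family and some list members (Npc2, Lamp2, Mitf, Tfe3, Tfeb, Ctsd, Axin2, Shmt2) were chosen after their values were seen. The fit was tested on simulated data. Alternatives covered the arrays in the fit, a replicate block, moderation of the variance, array weights, dim and control probe sets, normalization, a fold limit, the highest-mean probe set, background levels of 4 and 6, and leaving out each array.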

Additional observations from a re-analysis of the deposited data

How the results depend on the processing

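The counts of higher and lower probe sets (6937 and 6875) stayed within 1.5 times under every alternative except a limit of 1 on the absolute log2 difference, which left 2002 and 1740 probe sets and 1224 and 1097 genes. With each array left out in turn they were 6036 to 6447 higher and 5861 to 6241 lower. Replicate numbers did not pair the samples (correlations of same-numbered arrays -0.02, 0.02 and -0.02), and the replicate block gave 6689 and 6599, or 5360 and 5254 with the 6 arrays alone. Of 5114 results under the alternatives for 244 genes, which include those described above, 4931 kept direction and call, 165 lost the call (62 with the fold limit, 53 with an array left out) and 14 reversed. The background levels of 4 and 6 could not change these results, so the pooled count overstates stability. Counted by gene, 65 of the 244 lost the call in at least 1 alternative. Where another probe set came to stand for the gene, Aqp11 (-0.748) ran from -0.818 to 1.84 with an array left out, positive without mt-CCs replicate 1, and was 1.28 with the fold limit, Psmd13 (-0.337) ran from -0.434 to 0.349, positive without mt-CCs replicate 3, and Psmb1 and Rpl22 were 0.156 and -0.0350 with the highest-mean probe set. None of these 4 is described above. Cep83 ran from -0.473 (without fl-CCs replicate 3) to 0.566 with an array left out. The other reversals were of genes that were not called: with an array left out, Armcx5 ran from -0.399 to 0.0430, Krt19 from -0.00703 to 0.0474, Ptprc from -0.363 to 0.203, Sox9 from -0.147 to 0.243 and Thy1 from -0.169 to 0.0106, and with the highest-mean probe set Ptprc was 0.0607 and Sox9 -0.0023, or -0.0852 with array weights. Chosen after seeing the data, the comparison with EV turned chromosome 1 to -0.00664, and that with p53 R175H turned chromosomes 2 to -0.0639, 13 to -0.0879, 17 to 0.103 and X to -0.0357. A background level of 4 or 6 changed the 108 genes switched on in mt-CCs to 49 or 187 and the 85 switched on in fl-CCs to 33 or 201. Without detection calls, values near background limit the size of the largest differences.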
